A study of Homo sapiens with 18 samples.

Results

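The peaks described here are the 266 SP5 ChIP-Seq peaks that were called when the sequenced control was chromatin of Wnt3a-treated human embryonic stem cells, and that had no base in common with any peak called when the control came from buffer-treated cells. They made up 49.3% of the 540 peaks called against the Wnt3a-treated control. The other 274 peaks of that list had the same start and end in both lists and are called shared peaks below. A further 268 peaks were called only against the buffer-treated control, giving 808 distinct regions in all.

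ChIP-Seq had been deposited for hESCs without Wnt3a and for hESCs given 1 nM Wnt3a for 24 h, with 1 library each and no replicate. The headers of both peak lists name the same immunoprecipitated library, from Wnt3a-treated cells, with 18641194 sequenced tags. The lists differed in the control library alone, which held 20618344 tags for the Wnt3a-treated cells and 19031237 tags for the buffer-treated cells. Membership therefore separated peaks by the control they were compared with, and not by SP5 binding before and after Wnt3a, and none of the peaks had a replicate check. The labels give H1 as the cell line, whereas the headers name H9, another human embryonic stem cell line. RNA-Seq followed unmodified H1 cells (WT) before Wnt3a (0 h) and after 12, 24 and 48 h at 1 nM. Another experiment covered the same times in WT Rep. 2 and in the clones dZF1 and dZF2, each 1 clone of H1 cells in which the part of SP5 that encodes the zinc fingers had been mutated. Each series and time had 1 library, and the depth of the RNA-Seq libraries is unknown from the deposited values.

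WNT ligands stabilise β-catenin, which enters the nucleus and works with TCF/LEF factors to raise the transcription of target genes, SP5 among them. SP5 is a zinc finger protein of the SP/KLF family, whose members bind GC boxes in promoters and enhancers, and in pluripotent cells WNT signalling drives entry into primitive streak and mesendoderm. A ChIP-Seq peak is a place where tags from the immunoprecipitated chromatin outnumber those of the control at the same place, so a region that is rich in tags in one control and poor in another can be called against one of them only. RNA levels are given as RPKM, reads scaled to transcript length and to library size, and 4 values in a row stand for 0, 12, 24 and 48 h. SP5 was listed at 0, 49.8, 90.5 and 135.7 RPKM in the first WT series. The 7 markers of undifferentiated pluripotent cells, such as POU5F1 and SOX2, were all listed. Their summed RPKM was 2660.5 at 0 h and 1873.2 at 48 h. NANOG, also among them, was low and did not fall, at 3.3, 3.1, 5.9 and 3.4. The summed RPKM of 4 mesendoderm markers was 0.7 at 0 h and 459.9 at 24 h and was 253.5 at 48 h. That of 4 definitive endoderm markers was 4 at 0 h and 244.4 at 48 h. None of the 3 neural or the 4 trophectoderm markers was listed, and 2 of 4 fibroblast markers were listed, with summed RPKM between 18 and 30.2.

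The sequences below show 101 bases of the forward strand of GRCh37 centred on the summit, the base at which tags piled up highest. The first set shows summits with a GC box beside a start site or among the highest scores. They lay at chr19:44031352-44031452, chr19:42758031-42758131, chr5:53699-53799, chr3:5020345-5020445, chr22:28198024-28198124, chr15:67356608-67356708 and chr6:42110305-42110405, and each is named for its nearest protein-coding gene. Capitals mark the GC box GGGCGG, its form with a central A, GGGAGG, and the related GGGTGG, on either strand. A copy on the reverse strand is seen here as its reverse complement, CCGCCC for the first of them.
ETHE1: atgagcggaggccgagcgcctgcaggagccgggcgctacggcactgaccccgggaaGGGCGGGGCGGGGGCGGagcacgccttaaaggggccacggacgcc
ERF: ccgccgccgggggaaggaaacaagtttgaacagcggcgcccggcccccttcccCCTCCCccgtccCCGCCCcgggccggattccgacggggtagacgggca
PLEKHG4B: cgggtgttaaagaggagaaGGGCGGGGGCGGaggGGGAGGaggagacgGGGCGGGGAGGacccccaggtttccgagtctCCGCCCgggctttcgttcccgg
BHLHE40: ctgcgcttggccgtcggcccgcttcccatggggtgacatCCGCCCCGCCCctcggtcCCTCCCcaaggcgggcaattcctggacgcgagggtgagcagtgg
MN1: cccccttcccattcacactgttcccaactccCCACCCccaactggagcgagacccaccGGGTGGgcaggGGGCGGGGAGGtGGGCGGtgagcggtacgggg
SMAD3: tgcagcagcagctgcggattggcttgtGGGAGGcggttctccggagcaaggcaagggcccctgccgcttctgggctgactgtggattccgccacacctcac
C6orf132: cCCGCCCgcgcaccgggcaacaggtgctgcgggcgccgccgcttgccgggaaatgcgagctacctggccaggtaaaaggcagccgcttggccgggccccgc
The ETHE1 window held 3 overlapping or adjoining copies of GGGCGG, and the PLEKHG4B window held 4 of GGGCGG and 2 of GGGAGG. The SMAD3 window held 1 copy of GGGAGG.

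The next set shows summits without these letters, at the highest score and beside 2 genes that rose steeply under Wnt3a. The windows lay at chr5:141736558-141736658, chr17:44849889-44849989 and chr17:35278551-35278651.
SPRY4: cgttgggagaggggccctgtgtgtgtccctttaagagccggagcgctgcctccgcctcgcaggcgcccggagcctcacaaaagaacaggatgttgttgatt
WNT3: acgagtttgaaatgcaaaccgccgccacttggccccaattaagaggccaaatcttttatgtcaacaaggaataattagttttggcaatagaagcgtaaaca
LHX1: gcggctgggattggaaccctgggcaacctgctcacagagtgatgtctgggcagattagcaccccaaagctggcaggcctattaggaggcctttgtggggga
None of these windows held a GC box in any of the 3 forms.

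The 266 peaks were selected on the tag counts that gave them their score, so their heights are a description. They held a median of 22 tags, with quartiles of 17 and 31, against a median of 31 tags for the shared peaks. Their score, which the peak caller MACS derives from the log10 of its p-value and which rises as p falls, had a median of 55.39, near the limit of 50, against 65.675 for the shared peaks in the same list. Fold enrichment over the control had a median of 6.515 and ranged from 3.43 to 15.93. The false discovery rate (FDR) given by the caller had a median of 45.52%, and 6 of the 266 peaks (2.26%, 95% Wilson interval 1.04 to 4.83) were at 5% or below. Of the shared peaks 47 of 274 (17.2%) were at 5% or below. Such intervals cover counting error only.

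Beside the limit on the score, the lowest members had scores of 50.06 near PRRC2A, 50.06 near FADD and 50.12 near DIRAS2, and the lowest shared peaks had scores of 50.06 near RFPL3, 50.11 near KCTD5 and 50.19 near SOCS6. Scores under 55 were held by 126 of the 266 members and by 60 of the 274 shared peaks. Beside the rule on overlap, the member in FSCN1 lay 1218 bases from a peak of the other list and the member near SERTAD1 lay 3190 bases away. In all 10 members lay within 10000 bases of such a peak.

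The highest score belonged to an intergenic peak 30588 bases upstream of SPRY4, an inhibitor of receptor tyrosine kinase signalling, with 54 tags, a score of 132.69 and an enrichment of 8.69-fold. A peak 20 bases upstream of ETHE1, a mitochondrial sulphur dioxygenase, had 38 tags, a score of 123.57 and an enrichment of 14.32-fold, and the start of ZNF575 also lay within 2000 bases. The peak in an intron of ERF, an ETS-domain repressor under the control of ERK, had 53 tags and a score of 116.31. These 3 peaks were among the 6 with an FDR at or below 5%.

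A coding exon of SLAIN2, a microtubule plus-end protein, held a peak of 37 tags with a score of 110.02. The peak 38534 bases upstream of PLEKHG4B had 42 tags and a score of 97.1, and its 201 bases around the summit held 6 GGGCGG and 4 GGGAGG. Next came the promoter of ATL2, an atlastin GTPase of the endoplasmic reticulum, with a score of 91.53. An intron of GNAI2, an inhibitory G protein subunit, held a peak with a score of 89.26, and the peak 22138 bases upstream of ZFYVE9, an anchor for SMAD proteins, had a score of 89.2 with an enrichment of 14.13-fold. ERF was at an RPKM of 37.5, 35.4, 31.2 and 52.1, GNAI2 was at 131.4, 121.8, 136.3 and 160.6, and SPRY4 was at 70.2, 60.9, 50.2 and 115.4. None of these 3 genes reached a 2-fold change at any time.

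The other 2 of the 10 highest scores lay near large assembly gaps. The peak 54756 bases upstream of POTEA, on chromosome 8, had 32 tags, a score of 128.74 and the highest enrichment of all members, 15.93-fold, in sequence of 19.9% GC with 3 copies of CTTTGAT, a TCF/LEF motif, around the summit. The peak beside LINC00999 on chromosome 10 spanned 3216 bases, the longest of the members, with 98 tags but an enrichment of 4.88-fold. A peak near TPTE on chromosome 21 had the most tags, 99, spread over 2374 bases, and the lowest enrichment, 3.43-fold. These were the 3 members within 1000000 bases of an assembly gap of at least 1000000 bases, at distances of 746018, 338325 and 485891 bases. 1 more member lay on an unplaced scaffold of chromosome 19 and has no sequence or annotation here. At each of the other 265 summits, the words of 31 bases around it occurred a median of 1 time in the genome. The 101 bases centred on the LINC00999 summit nevertheless held 8 copies of GGAAT. Such counts of words cover exact copies in the assembly and miss any in its gaps. They do not show that tags were placed uniquely.

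The members were spread over 24 chromosomes or scaffolds, with 26 on chromosome 1, 23 on chromosome 19 and 21 on chromosome 3. Promoters held about as large a share of them as of the shared peaks. In all 73 of 266 summits (27.4%, 22.4 to 33.1) lay within 2000 bases of the start site of a protein-coding gene, against 26.3% (21.4 to 31.8) of the shared peaks and 17.5% (13.5 to 22.5) of the peaks called only against the buffer-treated control. 38 of the 73 lay upstream of the start. A further 81 summits (30.5%) lay up to 50000 bases away, against 42.3% of the shared peaks, and 112 (42.1%) lay farther out or had no annotation. The start site was 1 per gene. Of the summits farther than 2000 bases from it, 80 lay in introns, 90 between genes, 10 in coding exons and 9 in UTR exons, but 22, 1, 7 and 6 of these lay within 2000 bases of the start of another annotated transcript of a protein-coding gene. These shares are descriptions, and their differences were not tested.

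GC boxes were common at the summits. GGGCGG lay within 100 bases of the summit in 103 of 265 members (38.9%, 33.2 to 44.9), and in 6.42% of flanks of the same length 2000 bases away. The shared peaks held it in 45.3% (39.5 to 51.2), and the peaks called only against the buffer-treated control in 24.9% (20.1 to 30.4). GGGAGG lay in 43.4% (37.6 to 49.4) of the members, 58.0% (52.1 to 63.7) of the shared peaks and 32.1% of the members' flanks. At least 1 of these 2 forms, which may overlap each other, lay in 150 of 265 members (56.6%, 50.6 to 62.4), in 69.7% (64.0 to 74.8) of the shared peaks and in 51.3% of those called only against the buffer-treated control. Windows of the same length on 20176 start sites of protein-coding genes held GGGCGG in 46.6% and either form in 65.8%.

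**Figure D1:**
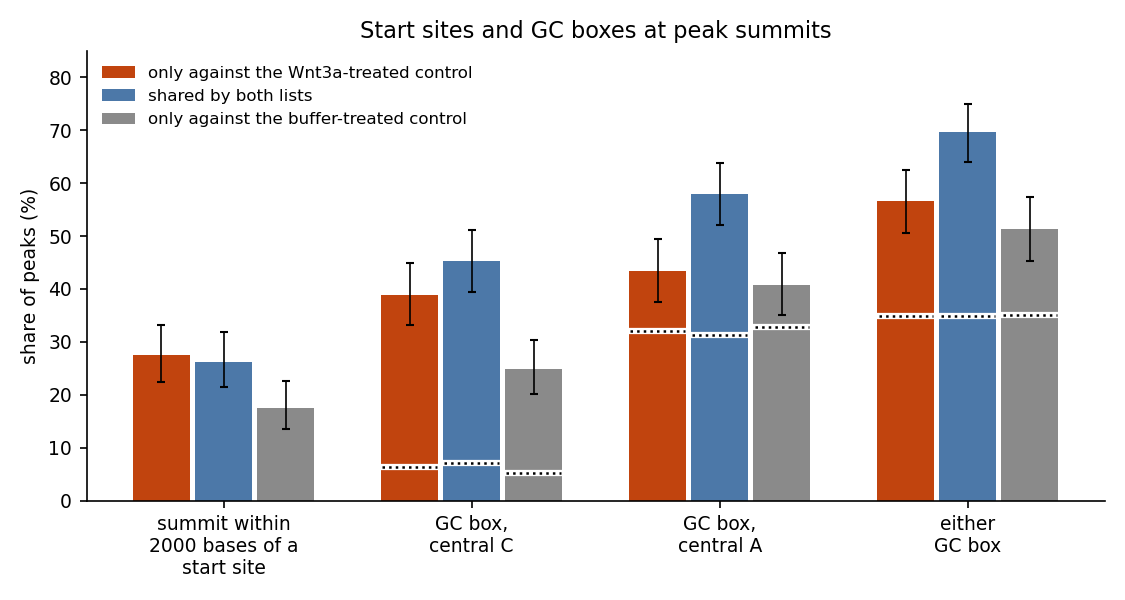
Shares of peaks (%) whose summit lay within 2000 bases of a start site, or held GGGCGG (central C), GGGAGG (central A) or either within 100 bases, for the 266 peaks called only against the Wnt3a-treated control, the 274 shared peaks and the 268 called only against the buffer-treated control. Error bars are 95% Wilson intervals and dotted lines are the share in flanks 2000 bases away. The GGGCGG share of the members, 38.9%, stands above that of their flanks, 6.42%.

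Occurrences of GGGCGG in the members were densest at the summit. Per 100 peaks there were 37.4 in the 100 bases before the summit and 45.7 in the 100 bases after it, falling to 19.2 and 17.0 at 400 to 500 bases on either side. For GGGAGG the values were 39.2 and 36.2 beside the summit and 26.8 and 24.2 at 400 to 500 bases. The rise towards the summit was thus steeper for GGGCGG than for GGGAGG in these bins. The form GGGTGG lay in 27.2% of the members and 18.5% of their flanks. CTTTGAT lay in 12 of 265 members (4.53%, 2.61 to 7.75) and 3.02% of flanks, and ATGCAAAT, the octamer bound by POU factors, in 4 (1.51%) and 1.32% of flanks.

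**Figure D2:**
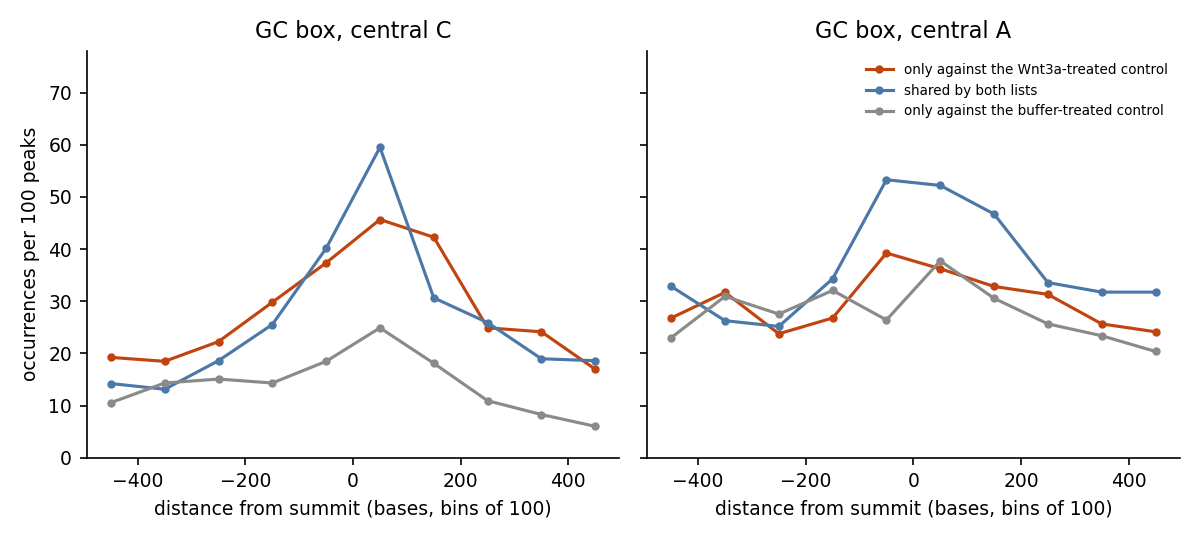
Occurrences of GGGCGG (left, central C) and GGGAGG (right, central A) per 100 peaks in bins of 100 bases by distance from the summit, on either strand. The line for the peaks called only against the Wnt3a-treated control reaches 45.7 for GGGCGG just after the summit and is at 19.2 and 17.0 in the outermost bins.

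Promoter and distal members differed in sequence. The 73 promoter summits had a median GC content of 69.7% over 201 bases and a median of 8.96 CpG per 100 bases, against 48.8% and 1.24 at the 192 distal summits. Either GC box form lay in 63 of the 73 promoter summits (86.3%, 76.6 to 92.4) and in 87 of the 192 distal ones (45.3%, 38.4 to 52.4). Among shared peaks these shares were 97.2% and 59.9%. Promoters are rich in GC in general, and the motif share moved with GC content here. Its part in the motif share was not tested.

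The share with a GC box also moved with the score, and at like scores the members and the shared peaks lay close together. With scores from 50 to 55, either form lay in 60 of 125 members (48%, 39.4 to 56.7) and 31 of 60 shared peaks (51.7%, 39.3 to 63.8). From 55 to 65 the shares were 51.3% (40.4 to 62.1) and 57.5% (46.1 to 68.2). At 65 and over they were 50 of 62 members (80.6%, 69.1 to 88.6) and 118 of 141 shared peaks (83.7%, 76.7 to 88.9). The intervals overlapped in each range, which does not show that the classes are alike. Promoter summits followed the same order, with 20.6%, 23.1% and 46.8% of the members in the 3 ranges. Of the shared peaks they made up 16.7%, 17.8% and 34.8%, lower in each range but with overlapping intervals.

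**Figure D3:**
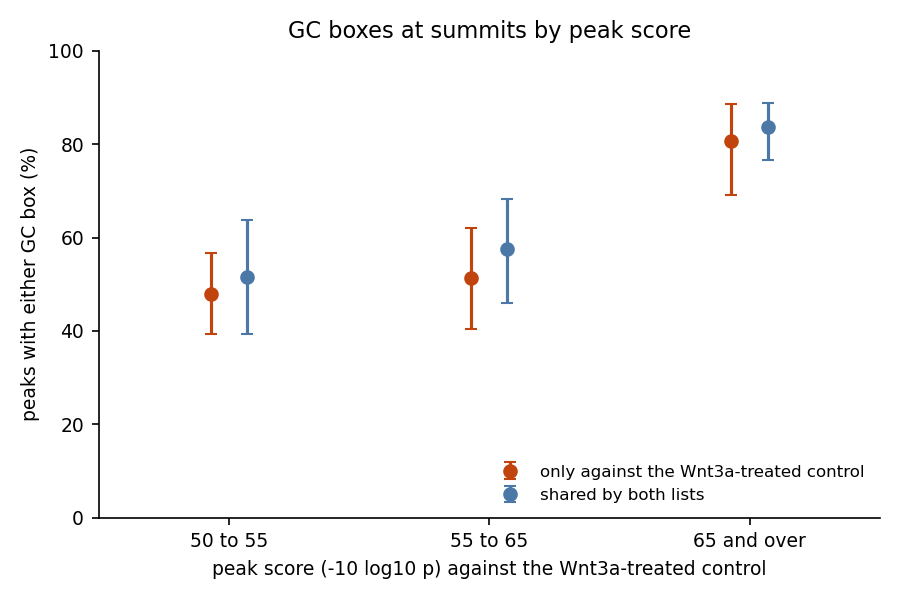
Share of peaks (%) with GGGCGG or GGGAGG within 100 bases of the summit, by score against the Wnt3a-treated control, for the members and the shared peaks. Points are shares and bars are 95% Wilson intervals, which overlap in all 3 ranges, with 80.6% and 83.7% at scores of 65 and over.

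The nearest protein-coding genes of the members numbered 260, of which 165 were in the RPKM table of 10975 genes, 8 of them under an older symbol. That table holds genes whose highest RPKM was at least 4. 5 of the 260 genes had 2 or more members, and 13 were also nearest to a shared peak. The median RPKM of the 165 genes was 15.2 at 0 h and 15.4 at 48 h, against 14.7 and 15.1 over the whole table. With 1 library per time these RPKM had no test, and a gene was counted as changed at 2-fold or more on log2(RPKM + 1), a scale that understates changes of low genes. The 12, 24 and 48 h values were all set against the same 0 h library. In such bulk RNA, a higher level in each cell and a larger share of expressing cells cannot be told apart.

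After 48 h of Wnt3a, 20 of the 165 genes (12.1%, 7.99 to 18.0) were at least 2-fold higher, against 4.87% of all genes in the table, and 6 (3.64%) were at least 2-fold lower, against 2.95%. At 24 h 9 were higher, against 2.62% of all genes, and 5 lower, against 1.36%. At 12 h 5 were higher, against 1.22%, and 1 lower, against 0.738%. The median log2 change at 48 h was 0.08 (order-statistic interval -0.01 to 0.16), against -0.00 over all genes. The nearest genes of the shared peaks gave 25 of 162 (15.4%, 10.7 to 21.8) higher and 9 lower at 48 h, and those of the peaks called only against the buffer-treated control gave 21 of 153 (13.7%, 9.16 to 20.1) and 10. When every listed gene with a start site within 50000 bases of a member was counted, 21 of 225 (9.33%) were higher and 10 (4.44%) lower.

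The 5 largest rises, in LHX1, FLRT3, WNT3, PLXNA2 and ROR2, belonged to genes whose peaks lay over 2000 bases from the start site chosen for the gene. All annotated transcripts of all protein-coding genes were then counted. A start of any such transcript lay 824 bases from the FLRT3 peak, 286 from the WNT3 peak and 41487 from the ROR2 peak. Such a start need not belong to the gene named. The distances of 15483 bases at LHX1 and 105488 at PLXNA2 stayed as they were. LHX1, a LIM homeodomain factor, was at 0.6, 0.3, 5.7 and 93.7 RPKM, so its log2 change by 48 h was 5.89. Its peak, 15483 bases upstream, held 25 tags with a score of 51.55 and an FDR of 49.57%. FLRT3, an adhesion molecule, was at 1.2, 1.1, 5.6 and 38 (log2 change 4.15), with a peak of 14 tags 156689 bases upstream in an intron of MACROD2. LHX1 and FLRT3 both rose late, and both were also nearest to a shared peak.

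WNT3, the ligand linked to primitive streak formation, rose early, at 1.4, 8.6, 26.8 and 31.4 (log2 change 3.75). Its peak lay in its own intron, 60581 bases downstream of the start, with 38 tags and a score of 56.48. PLXNA2, a semaphorin receptor, was at 0.4, 0.6, 3.7 and 10.2 (3), and its peak 105488 bases upstream had a score of 70.55. ROR2, a receptor for WNT5A, was at 2, 3.8, 14.5 and 22.3 (2.96), with a peak of 20 tags in its intron. CYP1B1, a cytochrome P450, was highest at 24 h, with 1.5, 11.1, 17.6 and 7.8, and its peak lay 658 bases from the start of an annotated transcript. DAB1, the adaptor of reelin receptors, also turned early, at 2.5, 7.1, 8.7 and 7.5. OTX2, a homeodomain factor of the epiblast and anterior embryo, started high, at 49.4, 41.5, 73 and 137.6 (1.46), with a peak 39232 bases upstream scoring 68.57. AMOTL2, which binds YAP, had members 11149 and 62215 bases downstream of its start and was at 14.8, 21.9, 28.6 and 32.6 (1.09). B3GALNT1, with a peak 95277 bases upstream in an intron of NMD3, was at 5.1, 6.5, 6.8 and 11.7 (1.06). NMD3 itself was at 26.6, 27.7, 30.9 and 26.7.

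Promoter peaks had 50 listed genes, of which 9 were at least 2-fold higher at 48 h (18%) and 4 lower (8%). Over all listed genes 4.87% were higher and 2.95% lower. Promoter genes of the shared peaks gave 8 of 53 (15.1%) higher and 3 lower. Those of the peaks called only against the buffer-treated control gave 6 of 33 (18.2%) higher and 0 lower. ACHE, the acetylcholinesterase gene, was at 2.8, 4.6, 10.1 and 13.1, with a peak 1410 bases inside the gene (log2 change 1.89). BHLHE40, a basic helix-loop-helix repressor, was at 2.7, 2.4, 3.3 and 11.8 (1.79), with 53 tags and a score of 88.82 at 727 bases upstream. NRTN, a ligand of the GDNF family, was at 1, 4, 6.5 and 5.1 (1.61), and was already at 4 by 12 h. PHF10, a subunit of a SWI/SNF complex, was at 4.7, 9.8, 9.8 and 15.5 (1.53). TP53I11 was at 20.1, 15.4, 18.5 and 55 (1.41), and MN1, a transcriptional regulator, at 2.7, 2.4, 3.1 and 8.2 (1.31). Both of these genes and BHLHE40 moved between 24 and 48 h. The other 3 were CAP2 and FSCN1, which encode actin-binding proteins, and INPPL1, a phosphoinositide phosphatase, with log2 changes of 1.06, 1.05 and 1.06. FSCN1 went from the high RPKM of 242.6 to 504.8.

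The 4 promoter genes that were lower lay close to their peaks. C6orf132, with its summit 3 bases from the start, was at 5.4, 2.5, 2 and 1.6 (log2 change -1.30). TUBB4A, a β-tubulin listed as TUBB4, was at 5.6, 3.6, 3 and 1.5 (-1.40), with the summit 372 bases into the gene. LHFPL6, listed as LHFP, was lowest at 24 h, with 9.5, 3, 1.1 and 3.3. ABTB3, listed as BTBD11, was at 8.5, 5, 3.7 and 1.8 (-1.76), with a peak in a coding exon. All 4 genes were low throughout, and with a pseudocount of 5 none of the 6 lower genes remained at 2-fold. Farther from their chosen start sites, CLDN20, a claudin, was at 5, 4, 0.5 and 0.5, and IRX2 at 10.7, 11.8, 7.2 and 4.8. The CLDN20 peak lay in an intron of TIAM2, which was not listed. PODXL, a sialomucin of pluripotent cells, was 2-fold lower at 24 h and less so at 48 h, with 204.3, 162.9, 97.8 and 118.9. MRPL39, of the mitochondrial ribosome, was 2-fold higher at 12 h only, at 13.5, 28.1, 17.5 and 15.3. The peaks beside these changing genes ranged in FDR from 9.88% at BHLHE40 to 50.34% at FLRT3, so none was at 5% or below.

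**Figure D4:**
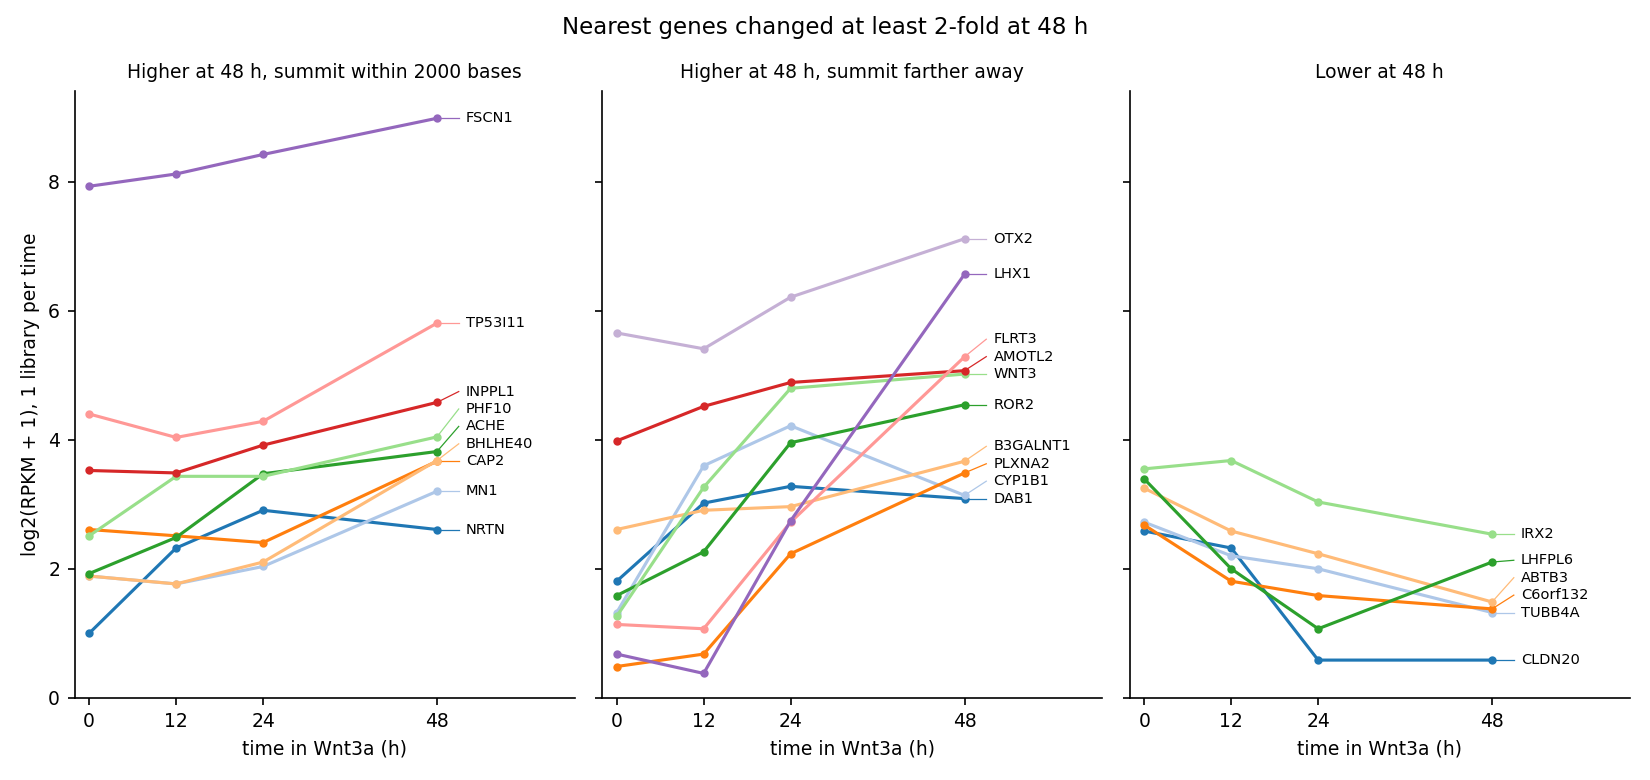
RPKM on a log2(RPKM + 1) scale at 0, 12, 24 and 48 h of Wnt3a, 1 library per time, for the nearest genes of members that changed at least 2-fold at 48 h. Panels hold the 9 higher genes with a summit within 2000 bases, 10 of the 11 higher genes with a summit farther away and the 6 lower genes. LHX1 climbs from 0.6 to 93.7 RPKM, almost all of it after 24 h.

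The 50 listed promoter genes had a median RPKM of 15.8 at 0 h, with quartiles of 6.425 and 27.35, against a median of 14.7 over the whole table. STMN1, a microtubule regulator, was at 587.5, 571.3, 576.2 and 577.5, with a peak of 43 tags 834 bases into the gene. TUBA1C, an α-tubulin, was at 180.9, 183, 190.9 and 218, and its peak also lay within 2000 bases of TUBA1A.

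Of the pathway genes, 4 of the 33 on a list of WNT components and feedback genes were nearest to a member. Of the same list, 3 were nearest to a shared peak and 2 to a peak called only against the buffer-treated control. Among all 20149 annotated protein-coding genes, 260 were nearest to a member, the share to set beside each list here. WNT3 is given above. CTNNB1, which encodes β-catenin, was at 184.9, 195.4, 200.9 and 262.5, with a peak 81550 bases from its chosen start in an intron of ULK4, and 1860 from the nearest start of any annotated transcript. TCF7L1, a TCF factor that acts mostly as a repressor, was at 27.4, 18.2, 20.2 and 22, with a peak of 31 tags 1809 bases into the gene. NOTUM, an enzyme that inactivates WNT ligands, had a peak of 68 tags 5712 bases upstream with a score of 59.76, and its RPKM was not in the table. On the whole list, 22 genes were in the table, of which 10 were at least 2-fold higher at 48 h and 0 lower.

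SMAD3, which carries TGF-β and NODAL signals, had a peak 557 bases into the gene, with 53 tags and a score of 85.59, and was at an RPKM of 4.3, 5.2, 4.4 and 2.5. It was the 1 gene of 29 on the TGF-β, NODAL and BMP list nearest to a member. Of that list 26 were in the table, with 9 higher and 0 lower at 48 h. The pluripotency list of 16 genes included OTX2, given above, and LIN28B, an RNA-binding protein, at 44.1, 48.9, 49.4 and 42.8. OTX2 was the 1 gene of these 16 that was 2-fold higher at 48 h, and 4 were lower. LHX1 and WNT3 were the members' neighbours among 16 mesendoderm genes, of which 15 were higher. ACTG1, a cytoplasmic actin, was at 1193.3, 1257.5, 1503.5 and 1948.8, with a peak 52222 bases downstream, and 3 of 11 listed cytoskeletal and adhesion genes were higher. No member was nearest to a gene on the definitive endoderm, neural, SP/KLF or chromatin lists. Of these lists 9 of 9, 0 of 6, 5 of 17 and 0 of 16 listed genes were higher at 48 h, and 3 of the 6 neural genes were lower.

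The second table gives WT Rep. 2 and both clones for 497 genes, each value relative to the gene's highest RPKM in WT Rep. 2, so that 1 is the WT Rep. 2 maximum. It held 21 nearest genes of members. WT Rep. 2 is a further series with its own 0 h library, and 12 of the 21 genes were higher and 7 lower at 48 h than at 0 h in both WT series. MN1 and SALL3, a spalt zinc finger gene, went up in the first series and down in WT Rep. 2. Each series was scaled to its own maximum per gene and both were fitted together with limma, 2 libraries per time. A gene highest at 48 h in both series, such as LHX1, WNT3, PLXNA2, FLRT3, ROR2, BHLHE40 and ACHE, was thus 1 in both there. This scaling removed its spread at 48 h, so its p-value can be too small. With 0.05 added to each value, its log2 change could not exceed 4.39. The fit covered the 497 genes of the table, which the authors had selected. The paper describes its genes for the clone comparison as significantly changed under Wnt3a. Where the 497 genes come from that set, a call of change at 48 h was favoured beforehand and is no independent support. With Benjamini-Hochberg adjustment at 0.05, 9 of the 21 genes were higher at 48 h than at 0 h, against 35% of the 497, and 1 was lower, against 7.44%. The 9 were LHX1 (log2 change 4.31, adjusted p 0.00118), WNT3 (3.24, 0.00423), PLXNA2, FLRT3, ROR2, BHLHE40, ACHE, CYP1B1 and DAB1, and the lower gene was BTBD11 (-1.32, 0.0484). OTX2 (0.89, 0.132) did not pass. In WT Rep. 2 LHX1 was at 0, 0.02, 0 and 1 at 0, 12, 24 and 48 h, WNT3 at 0.08, 0.24, 0.32 and 1, and PLXNA2 at 0.09, 0.06, 0.11 and 1. SP5 itself was at 0.02, 0.02, 0.09 and 1, against 0.01, 0.23, 0.9 and 2.54 in dZF1. The table gives transcript levels, so it does not show whether the clones make a zinc finger protein. On immunoblots, the paper reports no full-length SP5 protein in either clone, and a truncated form at a lower level than SP5 in WT cells.

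Over the 21 genes the clones lay on both sides of WT Rep. 2. With 0.05 added to each value, the median of their log2 ratios, clone mean against WT Rep. 2, was -0.17 at 0 h, -0.14 at 12 h, 0.20 at 24 h (-0.43 to 0.56) and 0.10 at 48 h (-0.48 to 0.55). Over all 497 genes it was -0.07, -0.02, 0.24 and 0.05. At 24 h 12 of the 21 genes were higher in both clones and 6 lower in both, and at 48 h 9 were higher and 8 lower. Over all 497 genes, 254 were higher in both clones and 145 lower in both at 24 h, and 222 and 179 at 48 h. All of these ratios share the WT Rep. 2 library of their time, and with 1 library each they were not tested.

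Several genes that were higher at 48 h than at 0 h in both WT series lay higher still in both clones at 48 h. Against 1 in WT Rep. 2, FLRT3 reached 3.04 in dZF1 and 2.92 in dZF2, with log2 ratios of 1.56 and 1.5. PLXNA2 was at 2.09 and 1.94 in the clones, and OTX2 and LHX1 were at 1.66 and 1.9 in dZF1, with log2 ratios in dZF1 and dZF2 of 0.70 and 0.95 for OTX2 and of 0.89 and 0.40 for LHX1. WNT3 stood apart at 24 h, where WT Rep. 2 was at 0.32, dZF1 at 0.95 and dZF2 at 1.7 (log2 ratios 1.43 and 2.24). ROR2 at 24 h was at 0.43, 0.69 and 1.07, and ACHE at 0.31, 0.57 and 1.14. AMOTL2 at 24 h was at 0.64, 0.84 and 1.37. In these 4 genes both clones lay above WT Rep. 2 at 24 h, with dZF2 above dZF1. At 0 h both clones lay below WT Rep. 2 in all 4, with ROR2 at 0.37, 0.24 and 0.15 and ACHE at 0.27, 0.13 and 0.12. ROR2 and ACHE also lay below it in both clones at 12 h. The WT series differed from each other at 24 h too. As a share of its own maximum, the first series was at 24 h at 0.854 for WNT3, 0.65 for ROR2, 0.771 for ACHE and 0.877 for AMOTL2, each above WT Rep. 2, and the clones had 1 library each.

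Other neighbours lay lower in both clones. LHFP at 24 h was at 1 in WT Rep. 2 but at 0.18 in dZF1 and at 0.33 in dZF2, with log2 ratios of -2.19 and -1.47. PODXL at 24 h was at 0.89, 0.44 and 0.46, and FGFR2, an FGF receptor, at 0.88, 0.59 and 0.55. BTBD11 at 48 h was at 0.37 in WT Rep. 2 and 0.09 in dZF1, with log2 ratios of -1.58 and -0.30 in the clones. TP53I11 at 24 h was at 0.9, 0.44 and 0.54. Before Wnt3a, both clones already lay lower for TP53I11 (0.88, 0.52 and 0.38), PODXL (0.9, 0.64 and 0.6) and FGFR2 (0.83, 0.75 and 0.61). LHFP and BTBD11 did not lie lower in both clones at that time. LHFP, PODXL, FGFR2 and BTBD11 were lower at 48 h than at 0 h in both WT series, and TP53I11 was higher in both. BHLHE40 at 48 h had log2 ratios of 0.07 and -0.08, and VSIG10, C6orf132, SALL3 and HCN4 then had mean log2 ratios of -0.05, -0.08, -0.25 and -0.51. CYP1B1 was above WT Rep. 2 at 24 h in both clones and below it at 48 h, with mean log2 ratios of 0.48 and -0.48. DAB1 at 48 h was at 1 in WT Rep. 2 and 0.92 in dZF1, and MN1 at 0.87 and 1.14, without a shared direction across times.

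**Figure D5:**
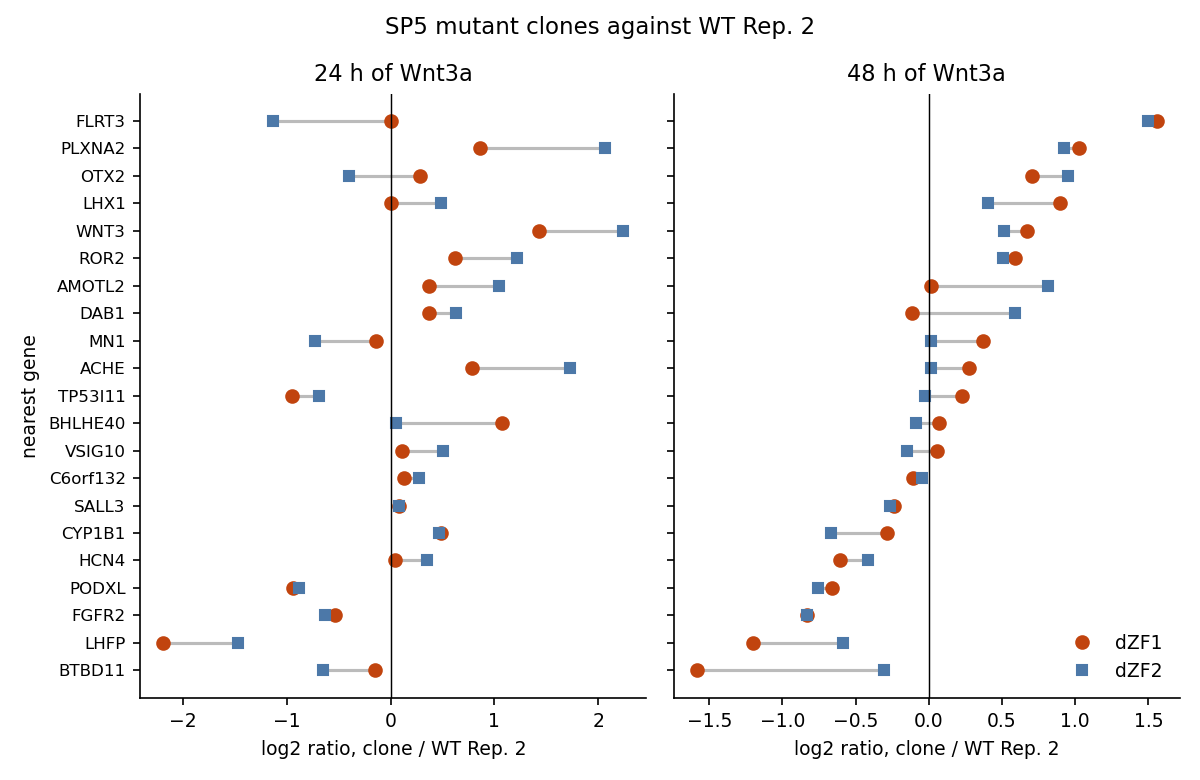
Log2 ratio of dZF1 (circles) and dZF2 (squares) to WT Rep. 2 at 24 h and 48 h of Wnt3a for the 21 nearest genes of members in the second table, 1 library each, with 0.05 added to each value. Genes are ordered by the mean ratio at 48 h, with FLRT3 (1.56 and 1.5) at the top and BTBD11 (-1.58 and -0.30) at the bottom, and ratios lie on both sides of 0.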

How the data were processed

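SP5 ChIP-Seq was deposited as 2 peak lists and RNA-Seq as gene tables. The authors aligned ChIP reads to hg19 with Bowtie, given as 0.12.7 in their processing notes and as a later major version in the methods. Peaks came from MACS 1.4.2, which scaled the larger library to the smaller, under a p-value limit of 1e-05. For each peak they deposited tag counts, a score that is 10 times the negative log10 of the p-value, a fold enrichment and an FDR in percent. The authors deposited RPKM from TopHat and Cuffdiff for the first WT series and, for the mutant experiment, each gene as a fraction of its WT Rep. 2 maximum, with clones as a ratio to that maximum. The tables were scaled separately, so no level was compared between them. Unused per-sample columns numbered 0.

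Members and gene lists were chosen with earlier results of these data known. Overlap meant at least 1 shared base. Summits were placed on GRCh37, the same assembly as hg19, and on GENCODE release 44 lifted to it, with 1 start site per protein-coding gene. Windows of 100 bases to each side of the summit were searched on both strands. Gene symbols were matched directly or through 1 older symbol. Named were the nearest genes of the 10 highest scores, changed promoter genes, the 10 largest rises and 5 largest falls, genes on the fixed lists and genes of the mutant table. Some items under this rule are not reported here. Peaks and clones had 1 library each, so shares carry 95% Wilson intervals, and medians order-statistic intervals. The 2 WT series were fitted together with limma 3.58.1 on log2(fraction of the gene's maximum in its series + 0.05), with Benjamini-Hochberg adjustment over 497 genes, a test added after the data were seen. Nothing says that the series came from separate cultures, so its p-values measure at most the spread between these libraries after scaling. For genes highest at 48 h in both series, the scaling left no spread at 48 h. The code was tested on simulated peaks and genes. Alternatives covered the overlap, score, distance, window, pseudocount and single clones. Python 3.11.15, pandas 2.3.3 and pysam 0.24.0 were used.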

Additional observations from a re-analysis of the deposited data

How the results depend on the processing

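Of the 34 alternative values computed, 23 stayed within the interval or within 1.5 times of the value reported and 11 did not. Of the 266 members, 89 had a score above the median of the list. Among these 89, 38.2% lay within 2000 bases of a start site and 71.9% held GGGCGG or GGGAGG. With the start sites of all transcripts, 41.7% of the members lay within 2000 bases. A window of 50 bases to each side of the summit gave 43.4% with GGGCGG or GGGAGG and 26.4% with GGGCGG, and one of 250 bases gave 69.8% and 51.3%. With a pseudocount of 5, 11 nearest genes were at least 2-fold higher at 48 h and 0 lower, and among genes with a highest RPKM of at least 10, 1 was lower. The median clone ratio at 48 h was 0.05 when dZF2 was left out and -0.03 when dZF1 was, so its sign rested on 1 clone. Over both WT series, a replicate block, chosen after seeing the data, left 9 of the 21 nearest genes higher and 1 lower at 48 h, the same genes as without the block, and moved the calls over the 497 genes from 174 higher and 37 lower to 198 and 51. The deviations of same-numbered libraries correlated between times at -0.21 to 0.61, highest between 12 and 24 h. Only the number is known to link these libraries, and these values do not settle whether they share more. Leaving out either WT series left no residual degrees of freedom. Single libraries and the near-threshold scores limit what the peaks and changes can show.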
